A study of Mus musculus with 4 samples.

Results

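The genes described are those whose symbol is Mrpl or Mrps followed by a number and at most 1 letter, the genes of the mitochondrial ribosomal proteins. They make up 78 of the 55421 genes in the table, 49 with a large subunit symbol (Mrpl) and 29 with a small subunit symbol (Mrps). All were chosen by symbol alone, with no measured value used. Of the 78 members, 77 passed the filter on low counts and were tested, and the one left out was Mrpl53. Every member is annotated as protein coding, and the members lie on 17 chromosomes.

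RNA-seq measured poly(A) RNA in primary spermatogonial stem cell (SSC) cultures from the testes of neonatal CD1 mice. The SSCs grew on mouse embryonic fibroblast feeder cells with GDNF and bFGF, so each library holds RNA of both cell types. The Veh group was kept in complete SSC medium, and the NRRA group received RA (retinoic acid) in a nutrient-restricted medium, mostly a balanced salt solution. There were 2 libraries per group, no genotype was altered in either group, and the effects of nutrient restriction and of RA cannot be told apart in these 4 libraries.

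The mitochondrial ribosome, or mitoribosome, sits in the mitochondrial matrix and makes the few proteins that mitochondrial DNA still encodes, which are core subunits of the respiratory chain and of ATP synthase. Its rRNAs come from mitochondrial DNA, whereas all of its proteins are encoded in the nucleus, translated in the cytosol and imported. Some of these proteins have a bacterial counterpart (names such as uL2m or bS6m, called bacterial-type below), and others are particular to mitochondria (mL or mS). Differentiating spermatogonia and early spermatocytes are known to rely more on mitochondrial respiration than stem spermatogonia do.

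The libraries held between 28022265 and 31604769 counts. Levels below are in CPM, the usual read count relative to library size, here after TMM adjustment of that size. Changes are log2 fold changes, NRRA over Veh, with their standard error (SE). A gene was called when the Benjamini-Hochberg adjusted p of edgeR's quasi-likelihood test over all 20232 tested genes was under 0.05. The study's reporting summary describes its sequencing replicates as independent biological ones. The labels do not tie each library to a culture, so the p-values are read as measuring the spread between these libraries. The germ cell markers Ddx4 (272.9 and 267.7 CPM in Veh, 270.9 and 278.4 CPM in NRRA) and Dazl were present in all libraries. So were all 17 fibroblast feeder markers, of which S100a4 was lowest (0.365 CPM in 1 NRRA library).

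Mitochondrial ribosomal protein transcripts were more often modestly lower than higher in NRRA. In NRRA 44 of the 77 tested members (57.1%) were called lower and 8 (10.4%) higher, with 25 not called, while scaling by library size alone gave 26 lower (33.8%) and 13 higher (16.9%). DESeq2 called 30 lower (39.0%) and 6 higher (7.79%), beside 22.9% and 22.4% of all tested genes. Over all tested genes, 28.4% were called lower and 27.9% higher with TMM, and 22.7% lower and 34.4% higher with library size alone. Among the 11635 tested genes within the members' range of mean CPM (3.80 to 150.5), 32.8% were called lower and 34.9% higher. The median log2 fold change of the members was -0.17, with quartiles of -0.32 and -0.03, beside a median of 0.00029 over all tested genes. With library size alone the members' median was -0.08, beside a median of 0.09 over all tested genes with that scaling. In sign alone, 61 members lay below 0 and 16 above. The libraries of one group lay entirely on one side of the other group's in 69 members (89.6%), against 76.7% of all tested genes. That was so in every called member, as in 99.9% of all called genes.

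The changes were small. Of the 52 called members, 24 differed by less than 1.2-fold. At 1.5-fold or more, 5 were lower and 1 higher. Only Mrps6 was called and differed by at least 2-fold, whereas 13.3% of all tested genes did. The median SE of a member's log2 fold change was 0.06, so differences well under 1.2-fold were within reach of the test.

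Because these are cultures of mixed cells, fewer cells of a type and less RNA per cell cannot be told apart. The summed level of the 17 feeder markers was 4764 and 4721 CPM in the Veh libraries and 3883 and 3685 CPM in the NRRA libraries. In NRRA 14 of the 17 feeder markers were called lower and 2 higher (11 and 2 with library size alone), from Timp1 (-1.52) to Pdgfra (0.98). The 10 germ cell markers summed to 2175 and 2239 CPM in Veh and 4086 and 4075 CPM in NRRA, a sum that Stra8 and Kit carried in NRRA. Of these 10 markers 4 were called higher and 5 lower (5 and 4 with library size alone). Their log2 fold changes ran from -6.94 for Dppa3 (8.48 and 8.20 CPM in Veh, 4 reads in 1 NRRA library and none in the other) to 7.56 for Stra8, a gene that RA induces (9.62 and 10.1 CPM in Veh, 1864 and 1853 CPM in NRRA), while Ddx4 had a log2 fold change of 0.02 and was not called (edgeR adjusted p = 0.511). Sertoli markers summed to 34.3 and 37.8 CPM in Veh and 16.1 and 16.6 CPM in NRRA. Leydig markers reached at most 9.12 CPM and macrophage markers at most 35.2 CPM in any library. The part of these cell markers in the members' changes was not tested.

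**Figure D1:**
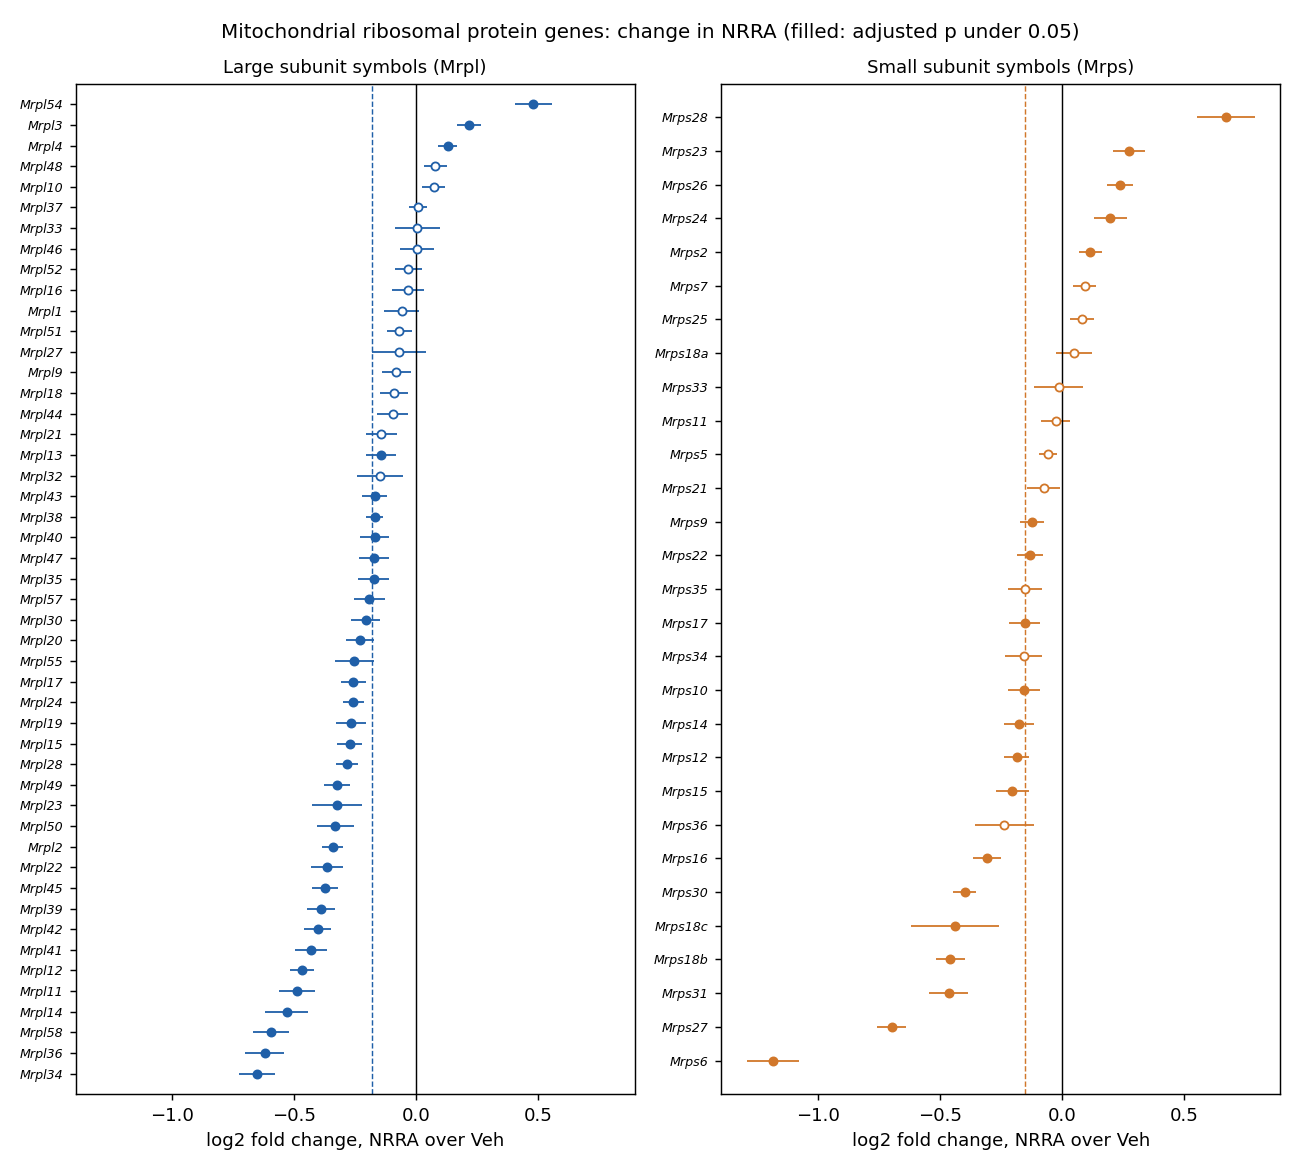
Log2 fold change (NRRA over Veh, horizontal axis) of each tested member, 48 with large subunit symbols on the left and 29 with small subunit symbols on the right. Points are estimates with bars of 1 SE, filled where the edgeR adjusted p was under 0.05, and dashed lines mark the medians (-0.18 and -0.15). With TMM scaling 30 large and 14 small subunit members are filled left of 0 and 3 and 5 right of it, against 20 and 6 left and 6 and 7 right with library size alone.

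The large subunit holds the peptidyl transferase centre and the exit tunnel, and the small subunit binds mRNA and holds the decoding site. Among the 48 tested Mrpl genes, 30 (62.5%) were called lower and 3 higher, with a median log2 fold change of -0.18. Among the 29 Mrps genes, 14 (48.3%) were called lower and 5 (17.2%) higher, with a median of -0.15, beside 28.4% and 27.9% of all tested genes. DESeq2 called 23 Mrpl genes lower (47.9%) and 3 higher (6.25%). For Mrps it called 7 lower (24.1%) and 3 higher (10.3%), beside 22.9% lower and 22.4% higher over all tested genes, so the share of lower calls in the small subunit was near the background. With library size alone the counts were 20 lower and 6 higher for Mrpl but 6 lower and 7 higher for Mrps, so the excess of lower calls in the small subunit depended on the scaling and on the tool. The small subunit count also rested on single libraries. Without NRRA replicate 1 only 8 Mrps genes (27.6%) were called lower, near the 24.3% of all genes tested in that fit. Without NRRA replicate 2 the counts were 9 lower (31.0%) and 3 higher (10.3%), beside 24.4% and 23.7% of all genes tested. The difference between the subunits was not tested.

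The summed level of the Mrpl genes was 2189 and 2180 CPM in the Veh libraries and 1942 and 1918 CPM in the NRRA libraries. The Mrps genes summed to 1125 and 1140 CPM in Veh and to 1046 and 1055 CPM in NRRA. The NRRA libraries were below both Veh libraries for each subunit, by 11.7% for the mean Mrpl sum and 7.28% for the mean Mrps sum. As a share of raw counts, with no scaling, the Mrpl genes took 0.212% and 0.211% in Veh and 0.200% and 0.198% in NRRA. The Mrps genes took 0.109% and 0.110% in Veh and 0.108% and 0.109% in NRRA, values that nearly touch. The ratio of the Mrpl to the Mrps sum, which no scaling alters, was 1.95 and 1.91 in Veh and 1.86 and 1.82 in NRRA. With 2 libraries against 2, an exact permutation test of any such sum cannot go below p = 0.333, so none was run.

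**Figure D2:**
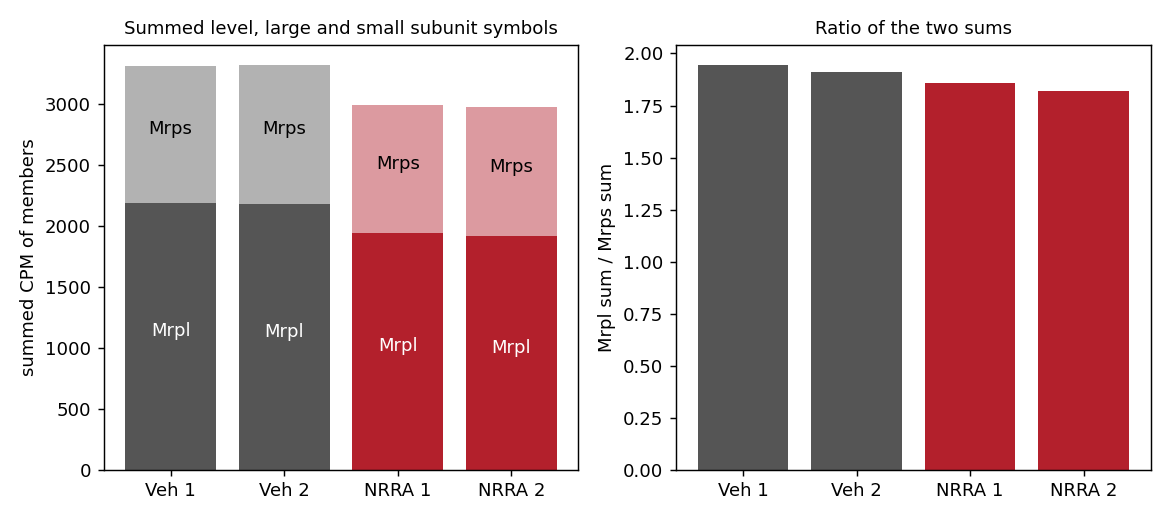
Summed CPM of the members in each library (left; dark, Mrpl; light, Mrps) and the ratio of the Mrpl to the Mrps sum (right), for 2 Veh and 2 NRRA libraries, both axes starting at 0. Both NRRA stacks are shorter than both Veh stacks, and the ratio is 1.86 and 1.82 in NRRA against 1.95 and 1.91 in Veh. As an unscaled share of counts the Mrps sums differed by only 1.33% between group means.

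A few symbols do not match the subunit in which the protein sits. Mrps30 (mL65) and Mrps18a (mL66) are built into the large subunit, and Mrps36 is now known as a component of the 2-oxoglutarate dehydrogenase complex, a citric acid cycle enzyme. Placing members by structure gave 31 lower and 3 higher of 50 for the large subunit and 13 lower and 5 higher of 26 for the small subunit, with medians of -0.18 and -0.14. Of the 46 bacterial-type members 28 were called lower and 5 higher (median -0.17), and of the 30 mitochondria-specific members 16 were called lower and 3 higher (median -0.16). These are 60.9% and 53.3% lower and 10.9% and 10.0% higher, beside 28.4% and 27.9% of all tested genes. With library size alone the lower calls were 15 (32.6%) and 11 (36.7%) and the higher calls 7 (15.2%) and 6, beside 22.7% and 34.4%. DESeq2 called 17 (37.0%) and 13 (43.3%) lower and 3 higher in each class, beside 22.9% and 22.4%. For the small subunit by structure, library size alone gave 5 lower and 7 higher and DESeq2 6 lower and 3 higher, and for the large subunit 21 and 6 and 24 and 3.

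Many members of this family have processed pseudogenes or overlap a neighbour, and the strand setting of the counting is not given in the sources used here. More than 20% of the exonic bases overlapped another gene in 10 members, and more than 20% of the longest transcript had a near-identical copy elsewhere in 15. In the 56 tested members below both limits, 32 were called lower (57.1%) and 8 higher (14.3%), with a median of -0.16, beside 28.4% and 27.9% of all tested genes. With library size alone the counts were 19 lower (33.9%) and 12 higher (21.4%), beside 22.7% and 34.4%, and by DESeq2 22 lower (39.3%) and 6 higher (10.7%), beside 22.9% and 22.4%.

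Mrps6 encodes bS6m, a bacterial-type protein of the small subunit platform, and lies at chr16:92058270-92112227 (GRCm38, plus strand). Its level was 17.7 and 15.7 CPM in the Veh libraries and 7.31 and 7.37 CPM in the NRRA libraries. Both NRRA libraries were less than 50% of either Veh library, and the log2 fold change was -1.18 ± 0.11 (SE, adjusted p by edgeR = 3.34e-10). It was the lowest of the 77. In the annotation 19.9% of its exonic bases overlap other genes on its own strand, among them Slc5a3, a myo-inositol transporter gene whose annotated start lies close by. Slc5a3 had 182.3 and 198.0 CPM in Veh and 95.3 and 91.3 CPM in NRRA, a log2 fold change of -1.03 ± 0.04 (SE, adjusted p by edgeR = 7.47e-18). How much of the Mrps6 value comes from reads of the shared part was not tested.

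Mrps27 encodes mS27, a mitochondria-specific protein of the pentatricopeptide repeat family, at chr13:99344786-99415562 (plus strand). It measured 46.3 and 45.9 CPM in Veh and 29.1 and 27.8 CPM in NRRA. The groups were far apart beside the spread within each, with a log2 fold change of -0.70 ± 0.06 (SE, adjusted p by edgeR = 1.32e-10). Of its exonic bases 24.2% overlap 6430562O15Rik on the opposite strand, which itself had a log2 fold change of -0.48.

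Next in order came small bacterial-type proteins of the large subunit and the release factor homologue Mrpl58. Mrpl34 (bL34m, chr8:71464959-71465747, plus strand) measured 30.4 and 33.2 CPM in Veh and 20.97 and 19.5 CPM in NRRA. The difference on the log2 scale was -0.65 ± 0.07 (SE, adjusted p by edgeR = 2.01e-08). Mrpl36 (bL36m, chr13:73328513-73332178, plus strand) measured 22.8 and 22.6 CPM in Veh and 14.4 and 15.1 CPM in NRRA. In both genes each NRRA library lay below each Veh library, and the log2 fold change of Mrpl36 was -0.62 ± 0.08 (SE, adjusted p by edgeR = 2.61e-07). Mrpl58 (mL62, also known as ICT1, chr11:115403752-115412674, plus strand) encodes a peptidyl-tRNA hydrolase built into the large subunit that can free stalled ribosomes. It measured 29.5 and 27.9 CPM in Veh and 18.1 and 19.9 CPM in NRRA, with a log2 fold change of -0.59 ± 0.07 (SE, adjusted p by edgeR = 1.60e-07).

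The stretches below lie upstream of Mrps6, Mrps27, Mrpl34 and Mrpl58, which were called lower, and of Mrps23, which was called higher. The other 2 belong to members that are not among the extremes. This set does not stand for the members called lower or higher, whose counts with the letters are given in the next paragraph. They are the 80 bases nearest the RefSeq start (GRCm38.p6) that hold no annotated exon, printed 5′ to 3′ on the gene's strand, and were chosen after the values were seen. Mrps6 lies at chr16:92058190-92058269, Mrps27 at chr13:99344706-99344785, Mrpl34 at chr8:71464846-71464925, Mrpl58 at chr11:115403672-115403751, Mrpl22 at chr11:58171581-58171660 and Mrps23 at chr11:88204308-88204387, all on the plus strand. Mrpl43 lies at chr19:45006443-45006522 on the minus strand. Capitals mark CCGGAAG or its reverse complement CTTCCGG, the core that ETS factors such as GABP bind, and, in Mrpl22, also GCGCATGC, the letters searched for NRF1.
Mrps6: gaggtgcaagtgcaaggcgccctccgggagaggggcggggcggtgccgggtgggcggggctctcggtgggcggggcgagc
Mrps27: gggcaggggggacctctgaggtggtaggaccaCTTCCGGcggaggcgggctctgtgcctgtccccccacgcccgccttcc
Mrpl34: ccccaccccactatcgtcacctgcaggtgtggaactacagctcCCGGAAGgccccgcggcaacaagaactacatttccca
Mrpl58: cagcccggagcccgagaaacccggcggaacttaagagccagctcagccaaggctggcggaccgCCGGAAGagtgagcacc
Mrpl22: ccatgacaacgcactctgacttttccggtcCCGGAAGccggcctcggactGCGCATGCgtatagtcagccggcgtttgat
Mrpl43: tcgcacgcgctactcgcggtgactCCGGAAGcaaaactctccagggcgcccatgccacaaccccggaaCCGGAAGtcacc
Mrps23: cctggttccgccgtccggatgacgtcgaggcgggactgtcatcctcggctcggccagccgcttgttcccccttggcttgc

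NRF1 and the ETS factor GABP are known regulators of nuclear genes for mitochondrial proteins. RefSeq windows of 250 bases before to 50 after the start were at hand for 69 of the 78 members. The missing ones were Mrps28, Mrps34, Mrps35, Mrpl4, Mrpl13, Mrpl15, Mrpl19, Mrpl38 and Mrpl54. On either strand, CCGGAAG (reverse CTTCCGG) stood in the windows of 26 of the 69 members (37.7%), against 9.93% of all 27025 genes with a window and 17.4% of the tested genes. GCGCATGC (reverse GCATGCGC) stood in 8 members (11.6%), against 3.05% of all genes and 5.36% of the tested genes. AAGATGGC (reverse GCCATCTT), the core of a YY1 site, stood in 12 members (17.4%), against 3.19% and 4.55%. The E-box CACGTG, which MYC proteins among others bind, stood in 5 members (7.25%), against 8.09% and 11.2%. The windows of members called lower and of members not called both held the ETS letters, 12 of 40 and 10 of 23, and so did 3 of the 5 windows of members called higher. These are matches of letters in a window, and binding was not measured.

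The 8 members called higher in NRRA were 5 Mrps and 3 Mrpl genes. Mrps28 (bS1m, chr3:8802146-8923918, minus strand) measured 6.42 and 8.07 CPM in Veh and 11.5 and 11.7 CPM in NRRA. It was the highest of the 77, with a log2 fold change of 0.67 ± 0.12 (SE, adjusted p by edgeR = 2.80e-05) on counts of 174 to 375. Mrpl54 (mL54, chr10:81264713-81266934, minus strand) measured 19.0 and 18.1 CPM in Veh and 26.2 and 25.6 CPM in NRRA. Both genes had all NRRA libraries above all Veh libraries, and that of Mrpl54 gave a log2 fold change of 0.48 ± 0.07 (SE, adjusted p by edgeR = 3.85e-06). Neither shares exonic bases with another gene or has a near-identical copy.

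Mrps23 (mS23, chr11:88204388-88211507, plus strand) measured 29.3 and 28.1 CPM in Veh and 36.1 and 33.3 CPM in NRRA, with a log2 fold change of 0.28 ± 0.07 (SE, adjusted p by edgeR = 7.14e-04). Mrps26 (mS26, chr2:130563742-130568695, plus strand) measured 42.6 and 42.1 CPM in Veh and 50.4 and 49.6 CPM in NRRA, with a log2 fold change of 0.24 ± 0.05 (SE, adjusted p by edgeR = 3.70e-04). Mrpl3 (uL3m, chr9:105053239-105079888, plus strand) encodes a protein that reaches into the peptidyl transferase centre. It measured 54.6 and 52.6 CPM in Veh and 64.0 and 60.5 CPM in NRRA, with a log2 fold change of 0.22 ± 0.05 (SE, adjusted p by edgeR = 5.30e-04). These 3 genes were about 1.2-fold higher with no overlap between groups. Mrps24 (uS3m), whose bacterial counterpart lines the mRNA entry, measured 28.2 and 31.5 CPM in Veh and 33.0 and 35.6 CPM in NRRA. Its log2 fold change was 0.20 ± 0.07 (SE, adjusted p by edgeR = 0.0143), and the call was lost without Veh replicate 1 (adjusted p = 0.167), without NRRA replicate 2 (adjusted p = 0.17) and by DESeq2 (adjusted p = 0.0757). The remaining calls were Mrpl4 (0.13) and Mrps2 (0.12). That of Mrps2 was lost without Veh replicate 2 (adjusted p = 0.212), without NRRA replicate 2 (adjusted p = 0.276) and by DESeq2 (adjusted p = 0.135).

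**Figure D3:**
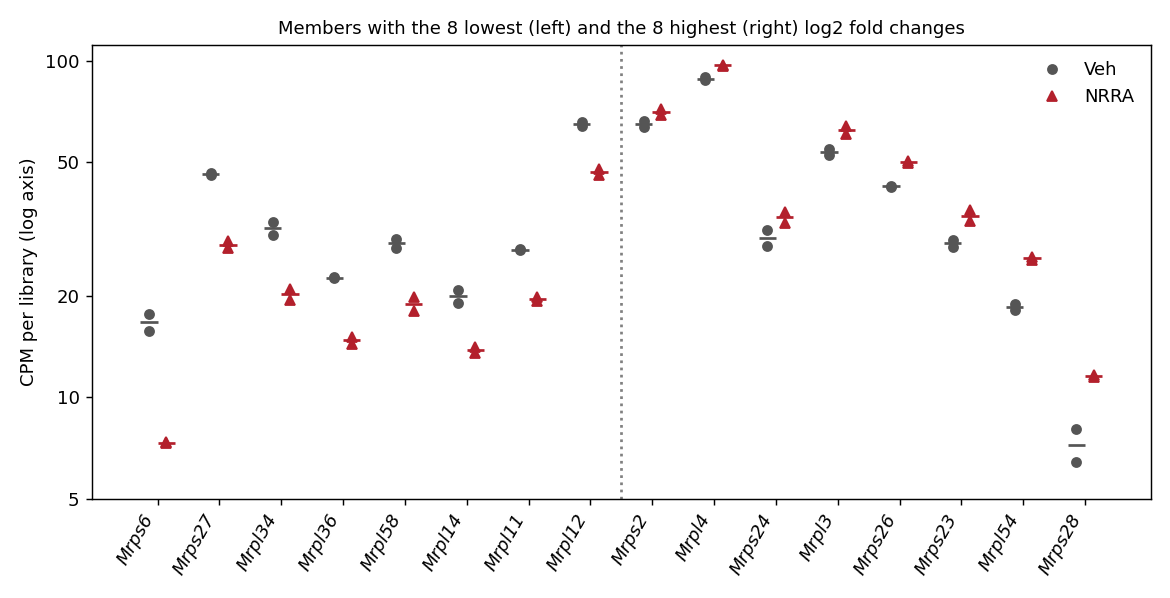
CPM of each library (log axis) for the 8 members with the lowest log2 fold change, left of the dotted line, and the 8 with the highest, right of it. Circles are the 2 Veh and triangles the 2 NRRA libraries, and short lines are the group means. All 16 were called, and called genes have groups that do not overlap in 99.9% of cases. Mrps6 lies at 15.7 to 17.7 CPM in Veh and 7.31 to 7.37 CPM in NRRA.

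The stalk of the large subunit, which recruits elongation factors, is built from Mrpl10, Mrpl11 and Mrpl12, and these did not move alike. Mrpl12 (bL12m, chr11:120484613-120489065, plus strand) measured 65.7 and 63.9 CPM in Veh and 45.9 and 47.8 CPM in NRRA. That is a log2 fold change of -0.47 ± 0.05 (SE, adjusted p by edgeR = 7.70e-09). Mrpl11 (uL11m, chr19:4962147-4966999, plus strand) measured 27.6 and 27.4 CPM in Veh and 19.9 and 19.3 CPM in NRRA, a log2 fold change of -0.49 ± 0.07 (SE, adjusted p by edgeR = 2.05e-06). Their NRRA levels were 0.723 and 0.713 of the Veh levels, with no overlap. Mrpl10 (uL10m), which anchors Mrpl12, measured 58.4 and 58.6 CPM in Veh and 62.0 and 61.1 CPM in NRRA. Its log2 fold change of 0.07 ± 0.05 was not called (SE, adjusted p by edgeR = 0.19, 95% interval -0.02 to 0.17), though with library size alone it was (0.16, adjusted p = 0.00413).

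Mrpl53, a mitochondria-specific protein at the base of the same stalk, had a count of 0 in all 4 libraries. Of its exonic bases (chr6:83109040-83109939, plus strand) 88.0% overlap other genes, among them Gm42688 on the same strand, which had counts of 38 and 31 in Veh and 82 and 56 in NRRA. What this overlap does to its count was not tested, and no fold was computed.

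Around the exit tunnel, through which the new peptide leaves toward the inner membrane, Mrpl45 (mL45), the membrane anchor, measured 63.8 and 58.3 CPM in Veh and 48.3 and 45.9 CPM in NRRA. On the log2 scale it was lower, at -0.37 ± 0.05 (SE, adjusted p by edgeR = 1.39e-06). Mrpl44 (mL44), a protein with a ribonuclease III-like fold, measured 32.9 and 34.9 CPM in Veh and 32.5 and 31.0 CPM in NRRA. The groups nearly touched, and the log2 fold change of -0.10 ± 0.06 was not called (SE, adjusted p by edgeR = 0.207, 95% interval -0.22 to 0.03). Mrpl23 (uL23m), the bacterial counterpart of which borders the tunnel exit, measured 15.6 and 14.01 CPM in Veh and 12.6 and 11.03 CPM in NRRA. It was called lower (-0.32 ± 0.10, SE, edgeR adjusted p = 0.00816), but 68.9% of its transcript has a near-identical copy in Mrpl23-ps1. The Mrpl23 call was lost without Veh replicate 1 (adjusted p = 0.0779), without NRRA replicate 2 (adjusted p = 0.119), by DESeq2 (adjusted p = 0.0547) and with library size alone (adjusted p = 0.0513). Mrpl22 (uL22m), whose upstream sequence is printed above, measured 33.6 and 33.4 CPM in Veh and 26.7 and 25.3 CPM in NRRA. It too was lower (-0.36) with a near-identical copy over 86.0% of its transcript.

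Mrpl2 (uL2m, chr17:46646229-46650139, plus strand), close to the peptidyl transferase centre, measured 82.1 and 80.4 CPM in Veh and 64.4 and 63.8 CPM in NRRA. The log2 fold change was -0.34 ± 0.04 (SE, adjusted p by edgeR = 1.73e-07), opposite in sign to that of Mrpl3, which lies near the same centre. Mrpl28 (bL28m) measured 73.2 and 74.6 CPM in Veh and 61.9 and 59.5 CPM in NRRA, a log2 fold change of -0.28. Mrpl38 (mL38), a mitochondria-specific protein, measured 163.2 and 155.6 CPM in Veh and 145.4 and 137.8 CPM in NRRA. That gene's log2 fold change of -0.17 is the family's median, and the call (adjusted p = 2.05e-04, edgeR) was lost with library size alone (-0.08, adjusted p = 0.058).

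Further large subunit members were named for their role or for their level per length. Mrpl47 (uL29m) measured 38.3 and 37.4 CPM in Veh and 32.5 and 34.7 CPM in NRRA (log2 fold change -0.17, edgeR adjusted p = 0.0182). Mrpl55 (bL31m) measured 20.4 and 22.0 CPM in Veh and 17.8 CPM in both NRRA libraries (log2 fold change -0.25, edgeR adjusted p = 0.00853). Both calls were lost by DESeq2 and with library size alone. The call of Mrpl47 was also lost without Veh replicate 1 (adjusted p = 0.0618) and without NRRA replicate 1 (adjusted p = 0.234), and that of Mrpl55 without Veh replicate 2 (adjusted p = 0.0953). Mrpl37 (mL37) was level, at 104.7 and 103.7 CPM in Veh and 105.9 and 103.6 CPM in NRRA, with a 95% interval of the log2 fold change from -0.07 to 0.08, though with library size alone it was called higher (0.10, adjusted p = 0.0273). Mrpl33 (bL33m) was at 15.9 and 14.4 CPM in Veh and 15.6 and 14.8 CPM in NRRA, with overlapping groups. Mrpl32 (bL32m), a protein that the m-AAA protease trims before assembly, measured 14.9 and 15.9 CPM in Veh and 14.9 and 12.9 CPM in NRRA, also with overlap (log2 fold change -0.15, edgeR adjusted p = 0.2).

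In the small subunit, Mrps12 (uS12m, chr7:28739641-28741820, minus strand) belongs to the decoding site. It measured 50.4 and 51.9 CPM in Veh and 44.4 and 45.6 CPM in NRRA. The log2 fold change was -0.18 ± 0.05 (SE, adjusted p by edgeR = 0.00388), and the call was lost with library size alone (-0.10, adjusted p = 0.127) and without NRRA replicate 1 (adjusted p = 0.0568). Mrps5 (uS5m), at the mRNA entry, measured 120.2 and 125.8 CPM in Veh and 117.1 and 119.7 CPM in NRRA. The groups did not overlap, but the log2 fold change of -0.06 ± 0.04 was not called (SE, adjusted p by edgeR = 0.201) and changed sign with library size alone (0.03).

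Mammals carry 3 homologues of bacterial S18, and differences among them were not tested. Mrps18a, in the large subunit, measured 21.8 and 21.1 CPM in Veh and 22.3 and 22.1 CPM in NRRA, a log2 fold change of 0.05 ± 0.07 that was not called (SE, adjusted p by edgeR = 0.59). Mrps18b (mS40, chr17:35910379-35916389, minus strand) measured 45.5 and 50.4 CPM in Veh and 34.4 and 35.6 CPM in NRRA. It fell by a clear margin (log2 fold change -0.46 ± 0.06, SE, edgeR adjusted p = 3.12e-07), although 30.5% of its exonic bases overlap Gm16279 and 38.6% of its transcript has a near-identical copy. Mrps18c (bS18m) was scarce, with 4.54 and 4.23 CPM in Veh and 3.65 and 2.79 CPM in NRRA on counts of 84 to 126. Its log2 fold change of -0.44 ± 0.18 passed narrowly (SE, adjusted p by edgeR = 0.0401) and did not without Veh replicate 1 (adjusted p = 0.133), without NRRA replicate 2 (adjusted p = 0.322), by DESeq2 (adjusted p = 0.177), with no filter on low counts (adjusted p = 0.0551) or with library size alone (adjusted p = 0.101).

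Mrps30 (mL65, chr13:118378381-118387252, minus strand) measured 66.7 and 66.6 CPM in Veh and 51.0 and 50.2 CPM in NRRA. The log2 fold change was -0.40 ± 0.05 (SE, adjusted p by edgeR = 6.48e-08), with tight and separate groups. Mrps36, the dehydrogenase component, measured 11.1 and 15.4 CPM in Veh and 11.02 and 11.5 CPM in NRRA. Its Veh libraries disagreed and the groups overlapped (log2 fold change -0.23, edgeR adjusted p = 0.0992). Without Veh replicate 1 it was called lower (-0.45, adjusted p = 4.99e-04), and without Veh replicate 2 its log2 fold change was 0.03. Near-identical copies, among them Mrps36-ps1 and Mrps36-ps2, cover 44.1% of its transcript.

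Mrps11 and Mrpl46 form a head-to-head pair, 1 gene per subunit, on chromosome 7, and their annotated loci share 413 bases. Mrps11 measured 36.6 and 36.3 CPM in Veh and 35.6 and 35.9 CPM in NRRA, and Mrpl46 measured 28.8 and 26.6 CPM in Veh and 29.0 and 26.4 CPM in NRRA. Neither was called (log2 fold changes -0.02 and 0.0048). Mrpl43, with the ETS letters at 2 places in its printed stretch, is a head-to-head neighbour of Twnk, the mitochondrial DNA helicase gene, which overlaps 33.4% of its exonic bases. It measured 53.3 and 53.1 CPM in Veh and 47.7 and 46.9 CPM in NRRA (log2 fold change -0.17, edgeR adjusted p = 0.00627), and the call was lost with library size alone (adjusted p = 0.194) and without NRRA replicate 2 (adjusted p = 0.0532).

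Levels of different members can be compared only per length. Per kilobase of annotated exon, the Veh means ran from 2.07 CPM for Mrpl33, 3.04 CPM for Mrpl23 and 3.09 CPM for Mrpl32 up to 53.6 CPM for Mrpl28, 62.5 CPM for Mrpl38 and 69.4 CPM for Mrpl2. The NRRA means of the same genes were 2.08, 2.42, 2.79, 44.0, 55.5 and 54.8 CPM per kilobase. These values depend on the length taken for each gene, since the exons of all annotated transcripts together can be far longer than any 1 of them. Per kilobase of the longest annotated transcript, a length chosen after seeing the data, Veh means were 31.7 CPM for Mrpl33 (478 bases in place of 7326), 20.1 CPM for Mrpl23 (736 in place of 4883) and 5.11 CPM for Mrpl32 (3013 in place of 4982). On that scale Mrpl38 was at 112.9 CPM and Mrpl2 at 78.8 CPM per kilobase, the opposite of their order per annotated exon, and Mrpl42 had the highest Veh mean (115.6 ± 12.7 CPM per kilobase, SD, n = 2), within its spread of Mrpl38. The length transcribed in these cells was not measured, so no order of these members by level is given. The length cancels when a gene is compared between NRRA and Veh.

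**Figure D4:**
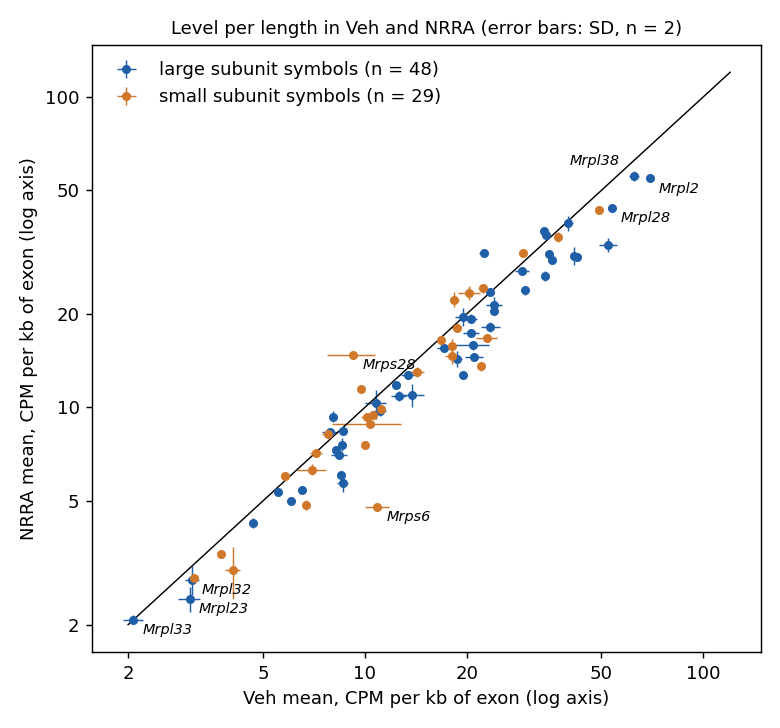
Mean level of each tested member in NRRA (vertical axis) against Veh (horizontal axis), in CPM per kilobase of annotated exon on log axes, with error bars of 1 SD over 2 libraries. The line marks equal levels. With TMM scaling most points sit just below the line (61 of 77 members had a log2 fold change below 0), Mrps6 is farthest below and Mrps28 farthest above.

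Of 5 mitoribosome proteins that carry other names, 2 were called lower and 1 higher (2 and 2 with library size alone), too few for a share to be read. Values of 4 of them follow, and the one left out was called lower and had the lowest log2 fold change of the 5 (-0.49). Ptcd3 (mS39), a pentatricopeptide repeat protein of the small subunit like Mrps27, measured 83.7 and 83.1 CPM in Veh and 72.0 and 67.8 CPM in NRRA and was called lower (-0.25). Dap3 (mS29), a GTP-binding protein of the small subunit, measured 78.5 and 78.3 CPM in Veh and 86.1 and 86.3 CPM in NRRA and was called higher (0.14, edgeR adjusted p = 0.00563). Aurkaip1 (mS38) was level at 54.4 and 52.9 CPM in Veh and 53.1 and 54.0 CPM in NRRA. Chchd1 (mS37) was not called (0.14), but was called higher without Veh replicate 2 (0.32, adjusted p = 0.00602) and with library size alone (0.23, adjusted p = 0.0336).

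The genes that serve the same ribosome are described from lists chosen by function. Of 15 mitochondrial translation factors, 8 were called lower and 2 higher (7 and 2 with library size alone), between Mtrf1, a release factor homologue, at -0.63 and Guf1, an elongation factor 4 homologue, at 0.52. Of 27 genes for mitoribosome assembly and rRNA maturation, 11 were called lower and 5 higher (7 and 5 with library size alone). DESeq2 called 8 of these lower (29.6%) and 3 higher (11.1%), beside 22.9% and 22.4% of all tested genes. The higher calls also became fewer without NRRA replicate 2. Rpusd3, a pseudouridine synthase homologue, was lowest at -1.32 with 65.2% of its exonic bases overlapping Gm44280 on the opposite strand, and Noa1, a GTPase of assembly, was highest at 0.49. Of 17 mitochondrial aminoacyl-tRNA synthetases, 8 were called lower and 3 higher (7 and 5 with library size alone), from Tars2 (-0.49) to Wars2 (0.36). The calls of Mtrf1 and Wars2 were lost without Veh replicate 1 (adjusted p = 0.0619 and 0.198), and that of Wars2 also without NRRA replicate 2 (adjusted p = 0.0918) and by DESeq2 (adjusted p = 0.115). The shares called lower were 53.3%, 40.7% and 47.1%, beside 28.4% of all tested genes, and with library size alone 46.7%, 25.9% and 41.2%, beside 22.7%.

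For comparison, the 76 tested cytosolic ribosomal proteins had 66 called lower (86.8%) and 1 higher, with a median log2 fold change of -0.27 (61 and 5 with library size alone, median -0.18). They ran from Rps10 (-0.70) to Rpl24 (0.49, not called, under 1 CPM in every library). Of the exonic bases of Rps10, 28.7% overlap other annotated genes (20.6% on the same strand), and of those of Rpl24 46.99% do, all on the same strand, so reads may be shared there. The 15 mitochondrially encoded genes, among them both mitoribosomal rRNAs, had 12 called lower and none higher with either scaling, with a median of -0.32, from mt-Atp8 (-0.90) to mt-Rnr2 (-0.15, not called). Poly(A) capture does not sample mitochondrial rRNA evenly, so those values do not measure ribosome number. The 36 nuclear complex I subunits, whose partners the mitoribosome makes, had 11 lower (30.6%, beside 28.4% of all tested genes) and 7 higher (19.4%, beside 27.9%). Their median was -0.02, from Ndufb4 (-0.51) to Ndufa1 (0.74). With library size alone the split turned to 5 lower and 17 higher (13.9% and 47.2%, beside 22.7% and 34.4%). DESeq2 gave 10 lower and 4 higher (27.8% and 11.1%, beside 22.9% and 22.4%), and the higher calls also became fewer without Veh replicate 2. No test compared these lists with the family.

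**Figure D5:**
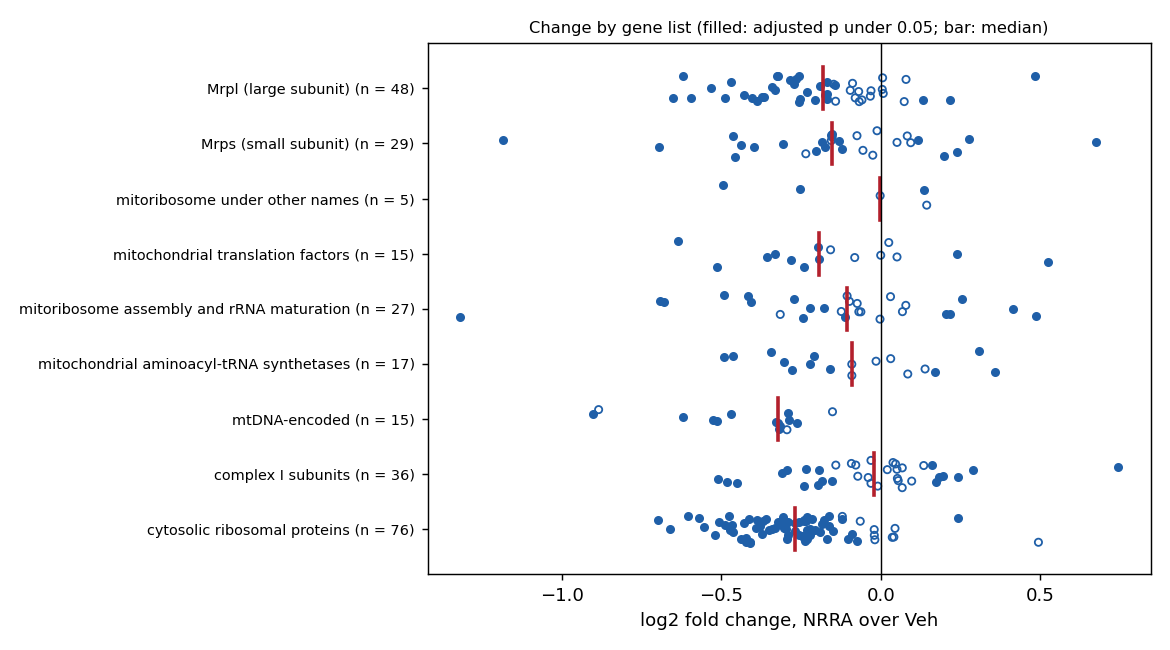
Log2 fold change (NRRA over Veh, horizontal axis) of each gene in the family's subunits and in 7 lists (rows), filled where the edgeR adjusted p was under 0.05, with a bar at each list's median. Vertical position within a row is random. Medians with TMM scaling run from -0.32 (mtDNA-encoded) and -0.27 (cytosolic ribosomal proteins) over -0.18 and -0.15 (Mrpl and Mrps) to -0.02 (complex I) and -0.00187 (5 mitoribosome genes under other names). Library size alone raises the last 2 to 0.07 and 0.09, and the median of all tested genes from 0.00029 to 0.09.

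Among 16 genes for mitochondrial transcription and its regulators, 6 were called lower (37.5%) and 3 higher (18.8%), beside 28.4% and 27.9% of all tested genes. With library size alone 5 were called lower (31.2%) and 6 higher (37.5%), beside 22.7% and 34.4%. DESeq2 called 5 lower (31.2%) and 1 higher (6.25%), beside 22.9% and 22.4%. Mycn, a MYC family factor of undifferentiated spermatogonia, measured 103.6 and 100.5 CPM in Veh and 13.4 and 13.8 CPM in NRRA. Its log2 fold change was -2.91 ± 0.06 (SE, adjusted p by edgeR = 4.95e-24), the lowest of the list. Ppargc1a, a coactivator of mitochondrial genes, was highest at 0.82 on under 1 CPM in every library and was not called (edgeR adjusted p = 0.109). Nrf1, whose letters were searched above, was lower at -0.28, while Gabpa, the DNA-binding subunit of GABP, was higher at 0.25 and Yy1 at 0.11. The Yy1 call was lost without Veh replicate 2 (adjusted p = 0.212), without NRRA replicate 1 (adjusted p = 0.184) and by DESeq2 (adjusted p = 0.0899).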

How the data were processed

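There were 2 Veh and 2 NRRA RNA-seq libraries. The authors deposited raw read counts per gene in 1 table, with whole numbers that differ in total between libraries. The labels' processing notes name bcl2fastq, STAR 2.6.1c, featureCounts 1.6.4 and the build mm10. The annotation release, the strand setting and the treatment of reads with several hits are not given in the sources used here. The study's methods describe stranded, oligo-dT selected libraries, and the labels name a TruSeq kit. Groups and replicate numbers came from the sample titles, and the descriptions, which number the Veh libraries otherwise, tied columns to samples.

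Counts were tested with edgeR 4.0.16 in R 4.3.3 (filterByExpr, TMM, robust quasi-likelihood fit, group as the only term) over 20232 of 55421 genes, with Benjamini-Hochberg adjustment and a threshold of 0.05. The biological coefficient of variation was 2.62%. DESeq2 1.42.0, which the study used, was an alternative, as were RLE factors, library size alone, other filters, no robust estimation, a replicate block, leaving out each library, and subunits by structure. Levels per length were also computed over the longest annotated transcript, an alternative chosen after seeing the data. Same-numbered libraries did not deviate together (correlation -0.0106 over 20232 genes), so the numbers were not taken as pairs. Scripts were tested on simulated data.

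Coordinates, exon lengths and overlaps came from GENCODE M21 (GRCm38), where 55240 identifiers (99.7%) were found. BLAST 2.17.0 found near-identical sequence, a stretch of 100 bases or more with an identity of 95% or more. Promoter windows are from RefSeq.

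The text names the 5 members with the highest and the 5 with the lowest log2 fold change, members picked for a role at a known site or beside the ribosome, the 3 highest and the 3 lowest in Veh CPM per kilobase of annotated exon, the untested member, the extremes of each list of mitochondrial or ribosomal genes, and the mitoribosome proteins under other names, apart from 1 gene. Mrpl22, Mrpl43, Mrpl4, Mrpl42, Mrps2, Mrps11 and Mrpl46, Nrf1, Gabpa and Yy1, and genes named as neighbours or for an overlap fall outside that rule and were added after their values were seen. The family was set by its symbols, but the members to name and the lists were chosen with earlier results of these data known. One gene of the list of mitoribosome proteins under other names is not reported here by name.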

Additional observations from a re-analysis of the deposited data

How the results depend on the processing

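The scaling of the libraries moved the members' calls and medians most, and it also moved the values over all genes. With library size alone the members' median log2 fold change was -0.079, with 13 called higher and 26 lower. The large subunit had 6 higher with a median of -0.092 and the small subunit 6 lower with a median of -0.062. Over all tested genes the same scaling moved the median from 0.00029 to 0.09, with 34.4% called higher and 22.7% lower. By DESeq2, 30 members were lower and 6 higher, with 23 and 3 in the large subunit and 7 and 3 in the small. Over all tested genes DESeq2 called 22.9% lower and 22.4% higher. Leaving out 1 library at a time lowered the number of members called lower, and the share of all tested genes called lower fell as well. The members' median then ran from -0.16 to -0.17, beside -0.0093 to 0.0096 over all tested genes. For the large subunit the median then ran from -0.18 to -0.22. For the small subunit it ran from -0.13 to -0.14, with 8 to 11 called lower and 3 to 5 higher. The count fell from 14 to 8 without NRRA replicate 1 and to 9 without NRRA replicate 2, and from 5 to 3 higher without NRRA replicate 2. The fit with a replicate block gave 44 members lower and 8 higher, as without it. It changed no call among the 32 tested members named by the rule above, which do not include the members added after their values were seen. Of 352 values for these 32 members, 321 kept direction and call. Direction changed with library size alone for Mrps5 (0.034). It changed when 1 library was left out for Mrps36 (-0.45 to 0.025, called at the lower end), Mrpl37 (-0.0037 to 0.023) and Mrpl33 (-0.068 to 0.077), the last 2 not called in any of these. Of the members called lower 26 of 44, and of those called higher 6 of 8, kept their call under every alternative run. The cause of these shifts was not tested. With 1 library left in a group, that library was assumed to vary like the others. Depth was similar in all libraries, and the lowest count of a tested member was 84.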
